A study of Rattus norvegicus with 8 samples.

Results

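The genes described here encode oxidant-producing enzymes: 6 NADPH oxidase components (Cybb, Cyba, Ncf1, Ncf4, Rac2 and Nox4) and xanthine oxidoreductase, Xdh. They were chosen by symbol, and all 7 were found among the 17055 rows of the gene count table. Each of the 7 passed the filter on low counts, which kept 10522 genes. The samples were diaphragm, the main muscle of inspiration, from 8 Sprague-Dawley rats at 16 weeks after surgery, with 1 RNA sequencing library per animal. In 4 MI rats a myocardial infarction had been made by tying the left anterior descending coronary artery. The 4 Sham rats went through the same operation under isoflurane, with ventilation and an opened left chest, but no tie. The labels name no genetic change or drug, and give time after surgery in place of age.

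NADPH oxidases move electrons from NADPH across a membrane to oxygen and so make superoxide or hydrogen peroxide. In the phagocyte enzyme, the membrane pair of Cybb (gp91phox, also called Nox2) and Cyba (p22phox) is dormant until cytosolic subunits, among them Ncf1 (p47phox) and Ncf4 (p40phox), and a Rac GTPase join it. Nox4 also pairs with Cyba, needs no cytosolic subunit and mainly releases hydrogen peroxide, and Xdh makes oxidants as a by-product of the last steps of purine breakdown. These enzymes are studied in the diaphragm as possible sources of oxidants in heart failure, and phagocyte oxidase genes are also expressed by the leukocytes that lie within the muscle.

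Library totals ran from 8566143 to 15944048 counts in MI and from 7941402 to 24967251 in Sham, the highest being Sham replicate 7. Levels are given as CPM, counts scaled by library size with TMM factors. A floor of 3 counts, for counting error alone, was 0.120 CPM in the deepest library and 0.378 CPM in the shallowest. Skeletal muscle fibre genes held 103040 to 130939 CPM in MI libraries and 109187 to 127299 CPM in Sham libraries, summed over the 8 of 11 listed genes that were in the table. Transcript lengths were not used, so levels are compared between libraries and never between genes. Nothing in the labels ties libraries to a shared batch.

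None of the 7 genes passed the test of MI against Sham in edgeR (quasi-likelihood F test). At an adjusted p under 0.05, 0 of the 7 were higher and 0 lower, against a background of 0% of the 10522 genes tested in either direction. At an unadjusted p under 0.05 the count was also 0 of 7, where 8.14% of all genes tested (856) reached that level, 3.67% as higher and 4.47% as lower. DESeq2 called 0 of the 7 as well, with 0.112% of genes called (15 of 13385), and limma-voom called 0 of the 7 and 0% of all genes. The MI and Sham values overlapped for each of the 7, whereas they did not overlap for 4.55% of all genes, with MI below every Sham library for 2.46% and above for 2.09%. Of the log2 fold changes, 5 were below 0 and 2 above, and 51.3% of all genes were below 0.

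**Figure D1:**
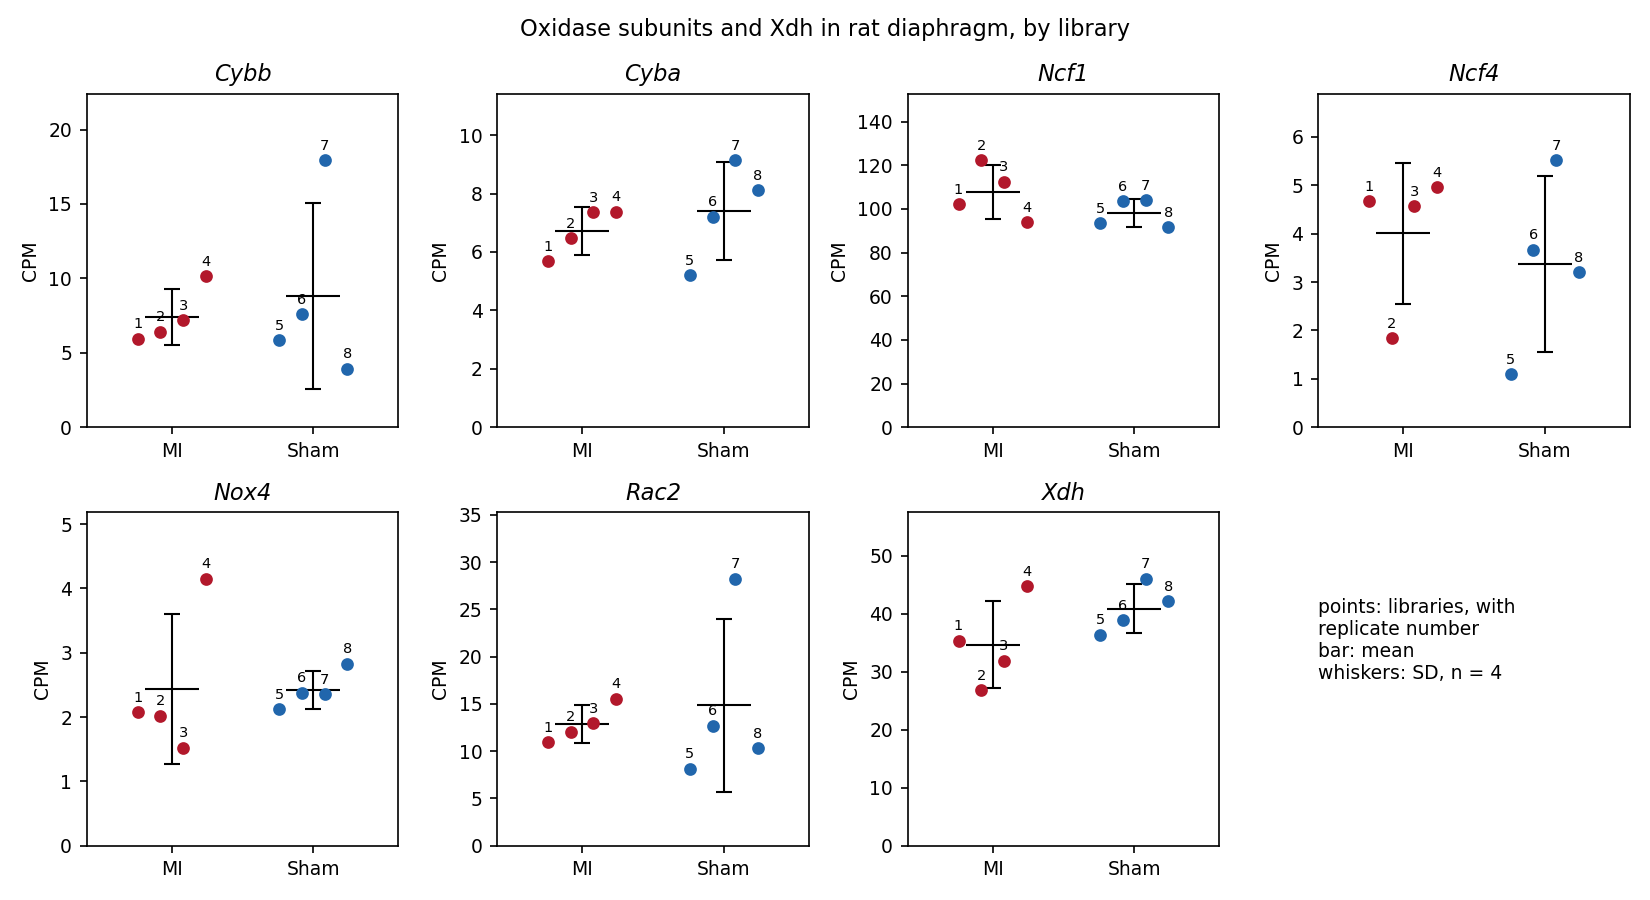
Level of each of the 7 genes in CPM (y axis, from 0, a separate scale per gene) in the 4 MI and the 4 Sham libraries. Points are libraries with their replicate numbers, horizontal bars are means and whiskers are SD (n = 4). Sham replicate 7 was the highest library for Cybb, Cyba, Ncf4, Rac2 and Xdh, and the groups overlapped in every panel.

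The membrane subunit Cybb carries the flavin and haem groups of the phagocyte oxidase. Its levels were 5.95, 6.42, 7.20 and 10.1 CPM in MI replicates 1 to 4, against 5.86, 7.59, 17.9 and 3.94 CPM in Sham replicates 5 to 8. Sham replicates 7 and 8 were the highest and the lowest of all 8 libraries, and every MI value lay between them. The mean was 7.43 ± 1.88 CPM in MI and 8.83 ± 6.25 CPM in Sham (SD, n = 4 each). The log2 fold change was -0.32 ± 0.43 (SE) with a 95% interval of -1.31 to 0.67 (edgeR adjusted p = 0.853). Without Sham replicate 7 the Sham mean was 5.80 ± 1.83 CPM (SD, n = 3), and the log2 fold change turned to 0.31 (edgeR adjusted p = 0.872). Sham replicate 7 thus set the sign of the Cybb difference.

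The sequence just before the RefSeq start of Cybb is shown because Cybb followed leukocyte markers more closely than most of the set, as described further on. RefSeq promoter entries were matched by symbol for 5 of the 7 genes (Cybb, Cyba, Ncf1, Nox4 and Xdh; build GRCr8, which differs from the rn5 build of the count table). Capitals mark 2 motifs searched on both strands: GAGGAA, the core bound by the myeloid factor PU.1 (reverse complement TTCCTC), and the CCAAT box (reverse complement ATTGG). The Cybb window is the 250 bases upstream of the start, on the minus strand at chrX:16065066-16065315.
Cybb: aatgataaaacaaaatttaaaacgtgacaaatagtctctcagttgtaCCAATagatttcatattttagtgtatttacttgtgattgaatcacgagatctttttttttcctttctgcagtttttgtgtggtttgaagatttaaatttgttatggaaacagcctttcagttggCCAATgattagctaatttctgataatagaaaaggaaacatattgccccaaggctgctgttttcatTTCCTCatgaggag
TTCCTC lay 14 to 9 bases before the start of Cybb, and CCAAT lay 79 to 75 and 203 to 199 bases before it, with no overlap between motifs. GAGGAA in either orientation was present in 23.3% of 33469 RefSeq windows of the same length and CCAAT in 34.0%, so neither is rare. Among the other 4 windows GAGGAA was found in none, and CCAAT only in that of Xdh, as ATTGG 78 to 74 bases before the start. A match is a run of letters and no evidence of binding.

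Cyba, the partner that stabilises both Cybb and Nox4 in the membrane, was at 5.68, 6.48, 7.37 and 7.38 CPM in MI replicates 1 to 4, against 5.20, 7.21, 9.14 and 8.12 CPM in Sham replicates 5 to 8. All MI values lay within the Sham range, and Sham replicate 7 was again the highest. The mean was 6.73 ± 0.815 CPM in MI and 7.42 ± 1.68 CPM in Sham (SD over 4 rats each). For Cyba this was a log2 fold change of -0.15 ± 0.19 with a 95% interval of -0.56 to 0.26 (edgeR adjusted p = 0.832). It was -0.03 without Sham replicate 7. The number of Cybb counts for each Cyba count was 1.05, 0.991, 0.977 and 1.38 in MI replicates 1 to 4, against 1.13, 1.05, 1.96 and 0.485 in Sham replicates 5 to 8. The 2 membrane subunits thus kept nearly the same proportion in 5 libraries and departed from it most in Sham replicates 7 and 8, in opposite directions.

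The cytosolic organiser Ncf1, which carries the active complex to the membrane once phosphorylated, varied less between libraries than the membrane pair. Its levels were 102, 122, 112 and 93.8 CPM in MI replicates 1 to 4, against 93.6, 104, 104 and 91.7 CPM in Sham replicates 5 to 8. Here Sham replicate 7 did not stand out, and the highest library was MI replicate 2. The mean was 108 ± 12.4 CPM in MI and 98.2 ± 6.48 CPM in Sham (SD over 4 rats each). The log2 fold change was 0.13 ± 0.09 with a 95% interval of -0.07 to 0.34 (edgeR adjusted p = 0.701). The interval is the narrowest of the 7. Those of Ncf1, Cyba, Xdh and Nox4 exclude a rise or fall of 1 log2 unit. Ncf1 kept its sign with each library left out, at log2 fold changes of 0.06 to 0.19.

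The 250 bases before the Ncf1 start are shown beside those of Cybb because both genes encode subunits of the phagocyte enzyme. They lie on the plus strand at chr12:28121635-28121884 of GRCr8.
Ncf1: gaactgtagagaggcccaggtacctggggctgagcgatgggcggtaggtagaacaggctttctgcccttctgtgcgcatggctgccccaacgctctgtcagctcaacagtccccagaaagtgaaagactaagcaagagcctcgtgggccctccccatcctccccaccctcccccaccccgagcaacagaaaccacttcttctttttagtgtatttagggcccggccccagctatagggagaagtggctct
This window held neither GAGGAA nor CCAAT in either orientation and so has no capitals, which says nothing about which factors act on the gene.

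Ncf4, a cytosolic subunit that binds the phosphoinositides of phagosomes, was at 4.68, 1.83, 4.57 and 4.96 CPM in MI replicates 1 to 4, against 1.10, 3.67, 5.52 and 3.20 CPM in Sham replicates 5 to 8. These levels rested on 15 to 143 counts, and 1 low library in each group, MI replicate 2 and Sham replicate 5, set much of the spread. The mean was 4.01 ± 1.46 CPM in MI and 3.37 ± 1.82 CPM in Sham (SD over 4 rats each). For Ncf4 the log2 fold change was 0.19 ± 0.45 with a 95% interval of -0.81 to 1.20 (edgeR adjusted p = 0.911). Without Sham replicate 5 the sign turned (-0.10), and without Sham replicate 7 the value was 0.58. Leaving out MI replicate 2 gave 0.44, whereas without MI replicate 1 or 4 it was 0.094 or 0.082.

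Rac2, the Rac GTPase of blood cells that switches the phagocyte oxidase on, was at 10.95, 12.04, 12.95 and 15.56 CPM in MI replicates 1 to 4, against 8.13, 12.7, 28.2 and 10.3 CPM in Sham replicates 5 to 8. As for Cybb, Sham replicate 7 was far above the rest while the other 3 Sham libraries overlapped the MI libraries from below, at 8.13 to 12.7 CPM. The mean was 12.9 ± 1.97 CPM in MI and 14.8 ± 9.12 CPM in Sham (SD over 4 rats each). The log2 fold change was -0.24 ± 0.37 with a 95% interval of -1.08 to 0.60 (edgeR adjusted p = 0.866). Without Sham replicate 7 the Sham mean was 10.4 ± 2.27 CPM (SD, n = 3) and the log2 fold change turned to 0.29 (edgeR adjusted p = 0.867). Rac1, the close relative of Rac2 that most tissues express, was read after its values were seen: its log2 fold change was 0.10 ± 0.11. The number of Rac2 counts for each Rac1 count was 0.481, 0.552, 0.757 and 0.649 in MI replicates 1 to 4, against 0.401, 0.652, 1.39 and 0.519 in Sham replicates 5 to 8. Rac1 was nearly level across the Sham libraries (20.0 ± 0.41 CPM, SD), so among them this ratio restates the Rac2 level and is no separate sign. The coding sequences of Rac1 and Rac2 were not compared, and how the unknown counting rule treated any reads they share was not tested. In the GRCr8 annotation 2 long noncoding RNAs overlap Rac2, and their reads cannot be told from those of Rac2 without strand.

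Nox4, the oxidase of vascular, fibroblast and other resident cells, had the fewest counts of the set over all libraries together, with 18 to 61 in a library. It was at 2.07, 2.02, 1.52 and 4.15 CPM in MI replicates 1 to 4, against 2.12, 2.38, 2.35 and 2.83 CPM in Sham replicates 5 to 8. The Sham libraries were close together, while MI replicates 3 and 4 were the lowest and the highest of all 8. The mean was 2.44 ± 1.17 CPM in MI and 2.42 ± 0.295 CPM in Sham (SD over 4 rats each). This gave a log2 fold change of -0.01 ± 0.30 with a 95% interval of -0.68 to 0.65 (edgeR adjusted p = 0.991). In the library with 18 counts, the error of counting alone is 23.6% of the value. The sign of the value changed in 5 of the 16 alternatives, and without MI replicate 4 it was -0.35.

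Xdh, the enzyme that oxidises hypoxanthine and xanthine to uric acid, was at 35.3, 26.8, 31.9 and 44.7 CPM in MI replicates 1 to 4, against 36.4, 38.9, 46.1 and 42.2 CPM in Sham replicates 5 to 8. MI replicates 1 to 3 lay below all 4 Sham libraries, and MI replicate 4 lay above 3 of them. The mean was 34.7 ± 7.54 CPM in MI and 40.9 ± 4.19 CPM in Sham (SD over 4 rats each). The log2 fold change was -0.24 ± 0.15 with a 95% interval of -0.56 to 0.08 (edgeR unadjusted p = 0.125, adjusted p = 0.660). Its unadjusted p was the smallest of the 7 in edgeR. The value stayed below 0 with each library left out, between -0.38 without MI replicate 4 and -0.14 without MI replicate 2. Without MI replicate 4 the unadjusted p in edgeR was 0.0117 and the adjusted p 0.817, and the smallest adjusted p over its 16 alternatives was 0.565.

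**Figure D2:**
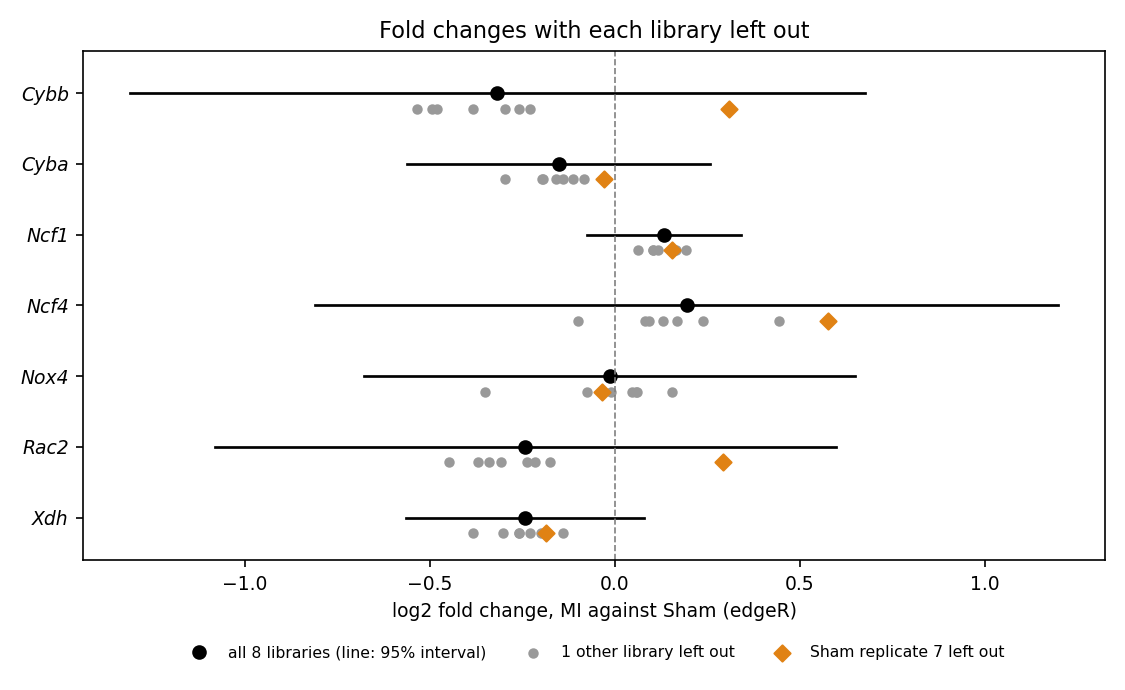
Log2 fold change of MI against Sham (x axis, edgeR) for each of the 7 genes (y axis). Black points use all 8 libraries with lines for the 95% interval, grey points leave out 1 library other than Sham replicate 7, and orange diamonds leave out Sham replicate 7. All 7 intervals include 0, and the diamonds of Cybb and Rac2, at 0.31 and 0.29, lie on the other side of 0 from the black points at -0.32 and -0.24.

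The 7 genes differed widely in their spread between animals. The fitted biological coefficient of variation was 0.419 for Cybb, 0.428 for Ncf4 and 0.355 for Rac2, and only 3.07%, 2.82% and 5.24% of the genes tested had a larger one. It was 0.253 for Nox4, 0.182 for Cyba, 0.158 for Xdh and 0.112 for Ncf1, against a median of 0.149 over all genes. Within groups, the coefficient of variation of Cybb was 25.4% in MI and 70.8% in Sham, that of Rac2 15.3% and 61.4%, and that of Nox4 47.8% and 12.2%. Whether these spreads differ between MI and Sham was not tested. Of the 7 genes, 5 had their highest CPM in Sham replicate 7, which was the highest library for 14.5% of all genes.

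The rats carried animal numbers in 2 ranges, which the labels do not explain. MI replicates 1 and 2 and Sham replicate 5 had numbers 253 to 256, and the other 5 rats had numbers from 275 to 288. On mean CPM, the log2 ratio of MI to Sham for Cybb was 0.08 in the lower range and -0.18 in the higher one, for Cyba 0.23 and -0.15, and for Rac2 0.50 and -0.26. For Ncf4 it was 1.57 and 0.21, for Ncf1 0.26 and 0.05, for Nox4 -0.05 and 0.17, and for Xdh -0.23 and -0.15. The lower range holds a single Sham library, so these are values without a test. With the range as a term in edgeR the log2 fold changes were -0.13 for Cybb, -0.019 for Cyba, 0.12 for Ncf1, 0.56 for Ncf4, 0.076 for Nox4, -0.025 for Rac2 and -0.18 for Xdh, and none passed.

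Macrophage and monocyte markers, of which 19 of 20 listed genes were in the table and tested, summed to 209 to 402 CPM in MI libraries and to 221 to 545 CPM in Sham libraries, with the highest sum in Sham replicate 7 and the next highest in MI replicate 4. In 17 of the 19, Sham replicate 7 was the highest library. Of 16 listed lymphocyte markers 15 were in the table and 6 were tested. The 15 summed to 10.4 to 22.8 CPM in MI and to 11.9 to 54.5 CPM in Sham, again highest in Sham replicate 7, where all 6 tested markers peaked. Only these 6 enter the mean log2 CPM of lymphocyte markers used further on. Neutrophil markers were close to the floor: of 8 listed genes only S100a9 passed the filter, the granule genes Elane and Ltf had 1 count each in all libraries together, and the summed level was 1.28 to 12.1 CPM in MI and 1.16 to 3.59 CPM in Sham. In bulk tissue, fewer cells of a type and less RNA per cell cannot be told apart. The part of leukocyte content in the fold changes above was not tested.

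Of the 19 macrophage and monocyte markers, 4 had a log2 fold change above 0 and 15 below, with a median of -0.23, against a median of -0.0070 over all genes tested. Without Sham replicate 7 the median of the list was 0.19. None passed in edgeR over all genes. At an unadjusted p under 0.05 there was 1 lower gene, the scavenger receptor Cd163, at a log2 fold change of -0.75 ± 0.31 (-0.34 without Sham replicate 7, edgeR unadjusted p = 0.108). The complement gene C1qa was at -0.71 ± 0.36, the mannose receptor Mrc1 at -0.28 ± 0.21 and the growth factor receptor Csf1r at -0.23 ± 0.20. Without Sham replicate 7, C1qa was at -0.22, Mrc1 at -0.13 and Csf1r at -0.13. The 4 genes named here, picked for the smallest p of the list, thus stayed below 0 without that library. The list median was then 0.19, so these 4 do not stand for the list. The fold changes of Cybb and Rac2 had the sign of the list median and turned with it when that library was left out. The median of the 6 tested lymphocyte markers turned as well, from -0.32 to 0.22, so the turn is not particular to the macrophage and monocyte list.

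Across the 8 libraries, the mean log2 CPM of the macrophage and monocyte markers went with Rac2 at Pearson r = 0.94 (Spearman rho = 0.83) and with Cybb at r = 0.92 (rho = 0.83). The exact permutation p for r, two-sided over all pairings, was 0.00122 and 0.00233 and became 0.0816 for both after Benjamini-Hochberg adjustment over the 70 relations computed, so neither passed. For rho the exact permutation p was 0.0154 for both (adjusted 0.179). After removal of the 2 libraries farthest from the median of the markers, MI replicate 4 and Sham replicate 7, r was 0.64 for Rac2 and 0.51 for Cybb, so much of the relation rested on those libraries. Other marker lists went with these genes too. Lymphocyte markers had r = 0.85 and rho = 0.71 with Cybb and r = 0.83 and rho = 0.76 with Rac2, and adipocyte markers had r = 0.71 and rho = 0.86 with Cybb and r = 0.57 and rho = 0.81 with Rac2, none past the threshold after adjustment. Without Sham replicate 7, r with Cybb was 0.87 for the adipocyte markers, 0.78 for the macrophage and monocyte markers and 0.55 for the lymphocyte markers, and no test set the lists against each other. For the remaining genes r with the macrophage and monocyte markers was 0.70 for Cyba, 0.68 for Ncf4, 0.68 for Xdh, 0.36 for Nox4 and -0.11 for Ncf1. The ranges of animal numbers hold 3 and 5 libraries, too few for a correlation within each.

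**Figure D3:**
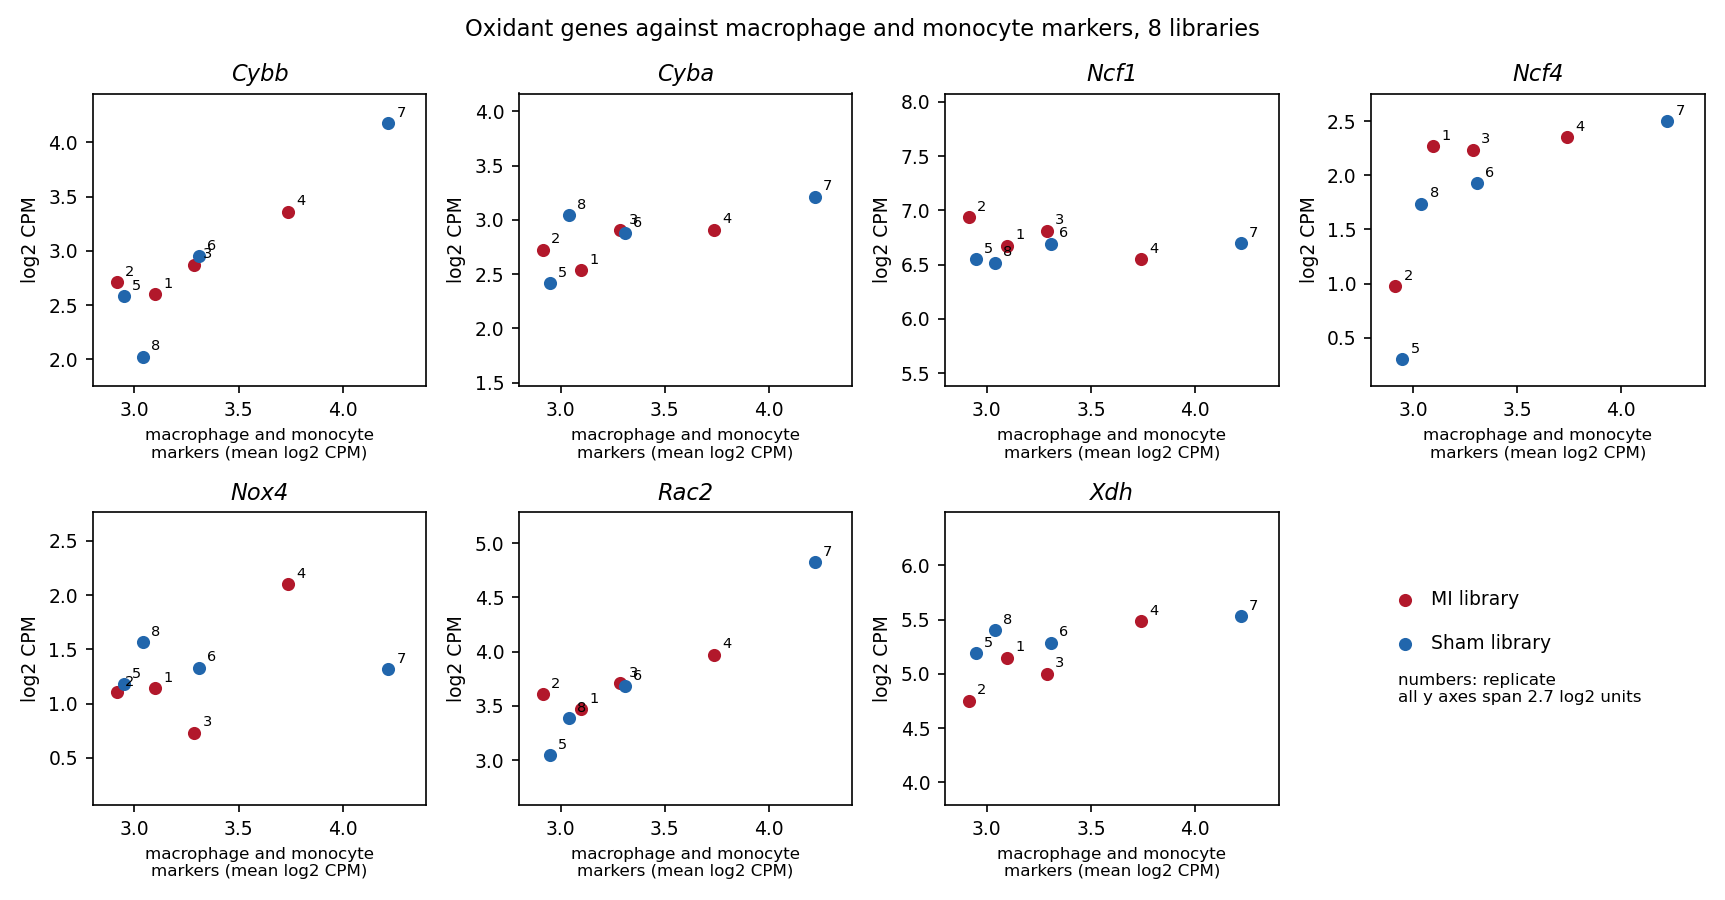
Log2 CPM of each of the 7 genes (y axes, each spanning the same number of log2 units) against the mean log2 CPM of 19 macrophage and monocyte markers (x axes) in the 4 MI and 4 Sham libraries, with replicate numbers. Rac2 and Cybb climbed with the markers (r = 0.94 and 0.92), largely through Sham replicate 7 and MI replicate 4, while Ncf1 stayed level (r = -0.11).

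The number of Cybb counts for each 1000 counts of these markers was 22.8, 30.7, 24.4 and 25.2 in MI replicates 1 to 4, against 26.4, 26.3, 32.9 and 15.9 in Sham replicates 5 to 8. On that scale Sham replicate 7 remained the highest library but was close to MI replicate 2, and Sham replicate 8 was the lowest. For Rac2 the number was 42.1, 57.5, 43.9 and 38.7 in MI, against 36.7, 43.9, 51.8 and 41.8 in Sham, with MI replicate 2 highest. For Ncf1 it was 393, 584, 381 and 233 in MI, against 422, 359, 191 and 370 in Sham, with the smallest values in the 2 libraries richest in the markers. Ncf1 ran only from 91.7 to 122 CPM, while the marker sums ran from 209 to 545 CPM. The ratio for Ncf1 thus mostly restates the marker level and is no separate sign.

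Among the 7 genes themselves, 18 of 21 pairs had a positive r. The closest pair was Cybb with Rac2, at r = 0.91 and rho = 0.95 (exact permutation p = 0.00459 for r and 0.00114 for rho; adjusted 0.107 and 0.0799), and r was 0.84 without the 2 libraries farthest from the median of Cybb, Sham replicates 7 and 8. Cyba with Rac2 had r = 0.77 and rho = 0.64 (exact permutation p = 0.0226 and 0.0962; adjusted 0.255 and 0.354), and 0.67 without MI replicate 1 and Sham replicate 5. For Ncf1, r was 0.16 with Cybb (rho = 0.50), 0.20 with Rac2 (rho = 0.52), 0.012 with Cyba (rho = 0.00) and -0.0010 with Ncf4 (rho = 0.17). The exact permutation p for rho was 0.216 with Cybb and 0.197 with Rac2 (adjusted 0.516 for both), so neither passed. Ncf1 leaned against Xdh at r = -0.77 and rho = -0.48 (exact permutation p = 0.0255 and 0.243; adjusted 0.255 and 0.516), and r was -0.45 without MI replicate 2 and Sham replicate 8. Of all 70 relations, 0 passed after adjustment for r and 0 for rho. A single library decided this count: without Sham replicate 8 there were 5, namely Cybb with Cyba, Rac2 and the macrophage markers, and Rac2 with Cyba and those markers. There were 2 without MI replicate 2 and 1 without Sham replicate 5. Without Sham replicate 7 there were 0, and r fell to 0.72 for Cybb with Rac2 and to 0.035 for Cybb with Cyba.

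**Figure D4:**
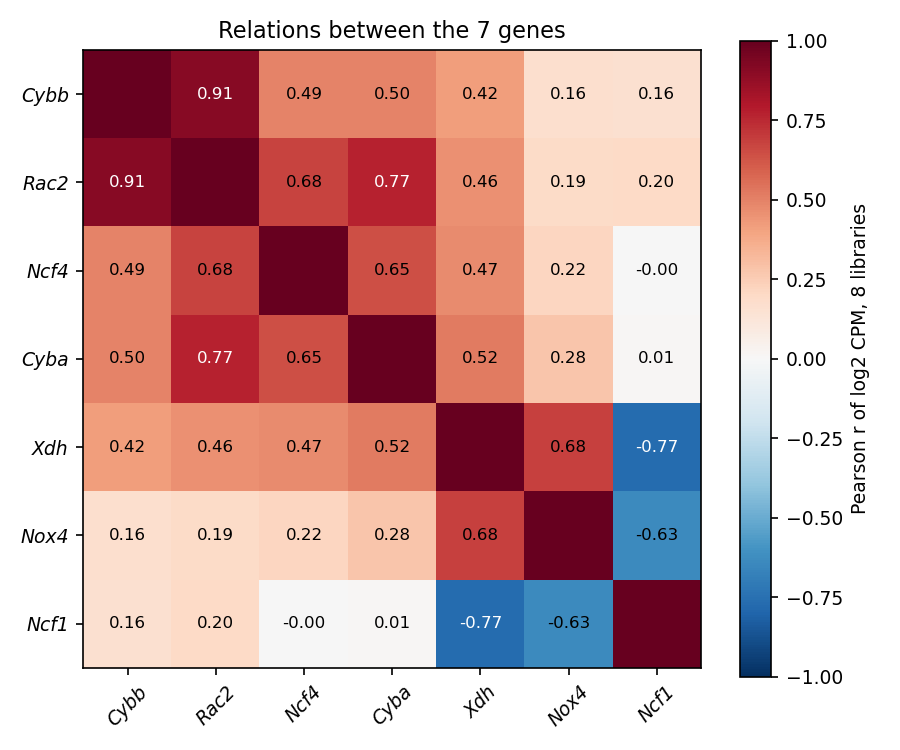
Pearson r of log2 CPM over the 8 libraries for each pair of the 7 genes (colour and printed value, rows and columns are genes). Cybb, Rac2, Ncf4 and Cyba form a block of positive values from 0.49 to 0.91. Xdh had r from 0.42 (Cybb) to 0.52 (Cyba) with these 4, so the block is not set apart from Xdh. Without Sham replicate 7 the values among these 4 ran from 0.035 (Cybb with Cyba) to 0.74 (Ncf4 with Rac2). Over all 8 libraries, Ncf1 lies between -0.0010 and 0.20 with these 4 and at -0.77 with Xdh.

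For each gene, up to 3 others of the 10521 tested genes with the highest Pearson r over the 8 libraries were looked up, as a description with no p because they are the top of that search. For Cybb these were Napsa (r = 0.97), Lpxn (0.96) and Cd53 (0.96), the last a tetraspanin of leukocytes. For Rac2 they were Ccnb1 (0.97), Rassf5 (0.96) and Slc11a1 (0.96), the last a metal transporter of phagosomes, and for Ncf4 they were Rab12 (0.97), Ccl6 (0.95), a chemokine of rodents, and Oasl2 (0.93). Cyba was most like Rassf2 (0.98), Mrvi1 (0.94) and Ubash3b (0.94). The profile of Ncf1 was nearest to Zfp777 (0.99), Zmynd11 (0.96) and Opa1 (0.94), the last a protein of mitochondrial fusion. Nox4 was nearest to Pttg1ip (0.96), Mat2b (0.96) and Fez1 (0.95), and Xdh to Lhfpl2 (0.96) and Aldh1a3 (0.95). Without the 2 libraries farthest from each gene's median, r stayed at 0.72 or above for all the genes named here but Mat2b, at 0.60.

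The list of other NADPH oxidase subunits and activators was measured in part. Of its 20 listed genes 18 were in the table and 11 were tested, of which 4 had a log2 fold change above 0 and 7 below, with a median of -0.12 (-0.02 without Sham replicate 7). None passed in edgeR over all genes. Sh3pxd2a, the scaffold also called Tks5, was at 2.21 CPM in MI against 3.70 CPM in Sham on average, a log2 fold change of -0.71 ± 0.25 and the 1 gene of the list at an unadjusted p under 0.05. Prkcb, a protein kinase C that can phosphorylate Ncf1, was at -0.59 ± 0.29 (-0.29 without Sham replicate 7), the Rac exchange factor Prex1 at -0.27 ± 0.16, and Duoxa2, the maturation factor of Duox2, at -0.61 ± 0.48 (-0.21 in the fit with a library left out that was nearest to 0).

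The other oxidase isoforms were at or near the counting floor. Nox3 was listed at 0 in every library, but so were Hprt1 and the collagen gene Col1a2, which muscle tissue is known to express, so a row of zeros is given only as listed. Nox1, Duox1 and Duox2 had counts in all 8 libraries but stayed at or below 1.72 CPM. These isoforms are named for their place in the pathway, with values already seen, and no fold change is given for them.

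Around Xdh, genes of purine breakdown and of the molybdenum cofactor that Xdh requires had fold changes near 0 at the median. Of 18 listed genes 15 were tested, with 4 above 0, 11 below and a median of -0.05, and none passed in edgeR over all genes. Mocs2, which builds the cofactor precursor, was at 175 CPM in MI against 147 CPM in Sham on average (log2 fold change 0.25 ± 0.09, unadjusted p under the threshold), whereas Mocs1, of the step before, was at -0.39 ± 0.19. Ada, the adenosine deaminase, was at 7.32 CPM in MI against 9.63 CPM in Sham (-0.38 ± 0.17, also under the threshold before adjustment), and the AMP-cleaving nucleotidase Nt5c1a at -0.38 ± 0.31 (-0.23 without Sham replicate 7).

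Among other sources of oxidants, 12 of 16 listed genes were tested, with 6 above 0, 6 below and a median of -0.03 (0.028 without Sham replicate 7). None passed in edgeR over all genes. The 2 monoamine oxidases, mitochondrial enzymes that release hydrogen peroxide, had the smallest p of the list. Maob was at 13.0 CPM in MI against 9.22 CPM in Sham on average, a log2 fold change of 0.48 ± 0.15 (edgeR unadjusted p = 0.0100), and Maoa at 88.6 CPM in MI against 75.8 CPM in Sham, a log2 fold change of 0.23 ± 0.10 (edgeR unadjusted p = 0.0405). Both stayed above 0 with each library left out, Maob at 0.40 to 0.56 and Maoa at 0.17 to 0.30, but without Sham replicate 7 the unadjusted p of Maoa was 0.121 (edgeR). The arachidonate lipoxygenase Alox12 was at 0.82 ± 0.51 (0.33 in the leave-one-out fit nearest to 0) and the endothelial nitric oxide synthase Nos3 at -0.23 ± 0.16.

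Cells that carry Nox4 and Xdh outside the blood were also read through their markers. Endothelial markers summed to 341 to 477 CPM in MI and 375 to 433 CPM in Sham (11 of 12 tested, median log2 fold change 0.04), and fibroblast markers to 2014 to 3570 CPM in MI and 1898 to 2621 CPM in Sham (9 of 10 tested, median 0.14), with MI replicate 4 highest. Smooth muscle and pericyte markers summed to 209 to 316 CPM in MI and 219 to 280 CPM in Sham (9 of 9 tested, median -0.07), and adipocyte markers to 2134 to 3426 CPM in MI and 2162 to 2953 CPM in Sham (7 of 7 tested, median 0.24). A single gene, Lpl, averaged 2521 CPM in MI and 2466 CPM in Sham and so made up most of the adipocyte sums. Over the alternatives the median ran from -0.027 to 0.29 for fibroblast, from -0.13 to 0.51 for adipocyte and from -0.11 to 0.095 for endothelial markers, so none of these 3 kept its sign. None of these 4 lists held a gene that passed in edgeR, and at an unadjusted p under 0.05 there were 3 higher fibroblast genes, 1 endothelial and 1 smooth muscle gene, where 3.67% of all genes were higher at that level. Without Sham replicate 7, the fibroblast gene Lum stayed under that level in edgeR, while Fap and Dcn did not. MI replicate 4, where Nox4 and the MI values of Cybb, Rac2 and Xdh were highest, was thus also the library richest in fibroblast and adipocyte markers. Nox4 with the fibroblast markers had r = 0.75 and rho = 0.43 (exact permutation p = 0.0392 and 0.299; adjusted 0.319 and 0.582), and r was -0.79 without MI replicate 4 and Sham replicate 8, so the relation rested on them. Its part in the spread of Nox4 was not tested.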

How the data were processed

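Per the labels' protocols, TRI Reagent RNA from diaphragm went through SMARTer Ultra Low input and KAPA Hyper kits, and no strand information is stated. The deposited values are raw counts per gene symbol, 1 column per animal. The submitters' processing notes name bcl2fastq, STAR 2.5.0a, TopHat2 or TopHat, Cufflinks and build rn5. The counting program, annotation and treatment of multiply mapping reads are unstated there and in the labels. Of the symbols, 25 had become dates, with 0.109% of counts.

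The 7 genes and all lists were chosen with earlier results of these data known. Tests used edgeR 4.0.16 in R 4.3.3 on all rows: TMM, filterByExpr, robust quasi-likelihood F test, two-sided, Benjamini-Hochberg adjustment over 10522 genes, threshold 0.05. Intervals are 95% from the fitted SE. Log2 CPM used a prior count of 2. Alternatives were RLE or total scaling, other filters, DESeq2 1.42.0, limma-voom (limma 3.58.1), no robust estimation, a threshold of 0.1, the animal number range as a term, a prior count of 0.5, and each library left out. Replicates differed beyond sampling noise (chi-square per degree of freedom 12.1 to 44.3). The labels name separate animals.

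On counts simulated for MI against Sham with 200 of 10522 genes changed, edgeR found 32% of the genes altered by 1.5-fold and 86% of the genes altered by 2-fold. It made 4 false calls. The simulated spread followed the trend over genes and not the spread of each gene. Fitted coefficients of variation between animals were 0.419 for Cybb, 0.428 for Ncf4 and 0.355 for Rac2, against a median of 0.149 over all genes. The recovered shares therefore do not apply to these 3 genes, whose recovery was not simulated. The text names the 7 genes, up to 4 genes of a list with the smallest p, and the 3 genes most like each of the 7, except that 1 gene is not reported here. Rac1, Lpl, the sparse oxidase isoforms and the genes listed at 0 fall outside that rule and were picked with their values known.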

Additional observations from a re-analysis of the deposited data

Results flagged for a closer look

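In groups of 4 libraries, a value was picked out when its gap to the nearest other library took most of the range of its group (Dixon's test at 95%). Of 36 groups looked at, over the 7 genes and the summed levels of the gene lists, 3 were picked out, and chance alone picks about 5%. Ncf4 in MI replicate 2 was at 1.83 CPM, far below the other MI libraries, which lay between 4.57 and 4.96 CPM. The summed level of other NADPH oxidase subunits and activators in Sham replicate 7 was 632 CPM, above 551 to 563 CPM in the other Sham libraries. The summed lymphocyte markers in Sham replicate 7 were at 54.5 CPM, against 11.9 to 13.8 CPM in the other Sham libraries. Cybb and Rac2 in Sham replicate 7 were not picked out, with gaps of 0.739 and 0.774 of the Sham range.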

How the results depend on the processing

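No paired analysis was possible because the labels number the animals separately and the groups share no replicate number. Of 112 alternative fold changes of the 7 genes, 104 kept their sign and 8 reversed, and the smallest adjusted p was 0.565. The reversals were Cybb (0.31) and Rac2 (0.29) without Sham replicate 7, Ncf4 (-0.10) without Sham replicate 5, and Nox4 when the range of animal numbers was a term (0.076) and without MI replicate 1 (0.047), MI replicate 2 (0.061), MI replicate 3 (0.16) or Sham replicate 8 (0.06). With a library left out, log2 fold changes ran from -0.53 to 0.31 for Cybb, -0.30 to -0.03 for Cyba, 0.06 to 0.19 for Ncf1, -0.10 to 0.58 for Ncf4, -0.35 to 0.16 for Nox4, -0.45 to 0.29 for Rac2 and -0.38 to -0.14 for Xdh. The number of genes called was 0, with DESeq2 15, and with a library left out 0 to 1 (1 without MI replicate 1 or MI replicate 3). Genes at an unadjusted p under 0.05 numbered 514 to 1090 with a library left out, the lowest without Sham replicate 7. Relations past the threshold numbered 0, and 0 to 5 with a library left out. The 17 other genes named with a fold change in these tests kept their sign in all 272 alternatives. All of them but Rac1 were picked for the smallest p of their list in these same libraries, which favours a steady sign. They are therefore no yardstick for the 7 genes. The lowest library counts were 18 for Nox4 and 15 for Ncf4, where counting error is 23.6% and 25.8%, beside fitted coefficients of variation between animals of 0.253 and 0.428. The cause of the changes was not tested.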

Other observations

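The number of Ncf1 counts for each Cybb count ranged from 9.25 to 19.1 in MI libraries and from 5.80 to 23.3 in Sham libraries, lowest in Sham replicate 7 and highest in Sham replicate 8. For each Ncf4 count there were 18.9 to 66.7 Ncf1 counts in MI and 18.8 to 85.2 in Sham. The counts of these subunits thus did not keep a fixed proportion from library to library. The highest values for Ncf4, in Sham replicate 5 and MI replicate 2, rested on 15 and 30 Ncf4 counts, and counting error alone is 25.8% at 15. Ncf1 varied little between libraries, so both ratios mostly restate the Cybb and Ncf4 levels given above. The genes on either side of Ncf1 in GRCr8 are Gtf2i and Gtf2ird2, which had Pearson r = -0.08 and 0.30 with Ncf1 over the 8 libraries (Spearman rho = -0.36 and 0.17), given as a description. No annotated gene overlaps Ncf1 in that assembly.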
